A study of Homo sapiens with 12 samples.

Results

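The exon and transcript-end peaks are stretches enriched for H3K27me3, histone H3 trimethylated at lysine 27, whose centre lies in an exon or at the end of a transcript. They were taken from the peak list of the vehicle-treated library of T24, an established human urinary bladder cancer line: all peaks on chromosomes 1 to 22 and X that the deposited annotation places in an exon or at a transcription termination site (TTS). There were 4497 such peaks, 2755 in exons and 1742 at transcript ends, out of 212277 vehicle peaks (2.12%). A further 8 on other contigs were left out. Each peak was followed through the consensus interval that holds it, one of 273664 merged regions for which the authors counted sequenced fragments in every library, and the 4497 peaks lay in 4282 intervals.

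The vehicle group received DMSO, for a time that the labels do not give. The treated groups were exposed for 72 h to GSK-126 at 5 µM, to fenretinide at 5 µM, or to the pair together, each again at 5 µM. Chromatin was fixed in 1% formaldehyde for 10 min and precipitated for H3K27me3, with 1 library per condition. The cells of all groups come from 1 line, and the medium and DMSO background are shared. The matching input and RNA libraries were not analysed here.

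H3K27me3 is written by Polycomb repressive complex PRC2, whose catalytic subunit is EZH2 (or EZH1), and it marks genes held silent, above all developmental regulators and genes of other tissues. GSK-126 competes with the methyl donor in the EZH2 active site. Fenretinide is a synthetic retinoid. Retinoids act partly through nuclear receptors that bind DNA as dimers of a retinoic acid receptor and a retinoid X receptor. In many cells H3K27me3 is densest over CpG-rich promoters and spreads from there into gene bodies, so that exons and transcript ends are reached by wide domains as well as by local enrichment.

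Some of the vehicle peaks that the annotation calls exon or transcript end also hold a transcription start. Of 34961 RefSeq promoter windows of 300 bases (250 before to 50 after a start, GRCh38.p14), 642 lay wholly inside one of these peaks, spread over 457 peaks. The motif CG, the letters at which vertebrate DNA is methylated (a CpG, the same on both strands), occurred at a median of 10 per window there, against 14 over all RefSeq windows, 12.5 in windows inside promoter peaks and 6 in windows inside intron or intergenic peaks. At least 1 CG was present in 96.9% of the windows inside exon and transcript-end peaks and in 96.1% of all windows. At least 10 were present in 53.1% and 56.5%. The following 250 bases upstream of a start come from 6 genes on which results below turn, from RefSeq on GRCh38.p14, 5′ to 3′ on the strand of the gene, with each CG in capitals. With GSK-126 the intervals of HOTTIP, CYP26A1 and GNG8 held a lower share of the library's fragments, and those of ZNF879 and PCDHA6 a higher share. These are values of whole intervals, not of the stretches shown, and those of ZNF879 and PCDHA6 each hold several genes. MYH6 lies in one of the widest peaks and holds the fewest CG of the 6.
HOTTIP (chr7:27200171-27200420, plus strand): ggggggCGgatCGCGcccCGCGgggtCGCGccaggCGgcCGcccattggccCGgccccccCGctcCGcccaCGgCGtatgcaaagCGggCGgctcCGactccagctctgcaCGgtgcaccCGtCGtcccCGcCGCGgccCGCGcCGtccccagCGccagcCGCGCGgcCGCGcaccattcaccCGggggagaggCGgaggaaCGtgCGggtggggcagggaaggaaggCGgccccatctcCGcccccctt
CYP26A1 (chr10:93073643-93073892, plus strand): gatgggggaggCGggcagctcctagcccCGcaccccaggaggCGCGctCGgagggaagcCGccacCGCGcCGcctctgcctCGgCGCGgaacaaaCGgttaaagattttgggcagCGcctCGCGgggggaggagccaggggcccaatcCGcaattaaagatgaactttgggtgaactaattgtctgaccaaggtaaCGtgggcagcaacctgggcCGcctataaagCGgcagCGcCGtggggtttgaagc
GNG8 (chr19:46636203-46636452, minus strand): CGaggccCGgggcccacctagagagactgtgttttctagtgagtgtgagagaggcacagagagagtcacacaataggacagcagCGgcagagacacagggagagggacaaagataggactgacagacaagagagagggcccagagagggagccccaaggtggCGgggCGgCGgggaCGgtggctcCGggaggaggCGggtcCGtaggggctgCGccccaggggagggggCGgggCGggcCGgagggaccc
ZNF879 (chr5:179023554-179023803, plus strand): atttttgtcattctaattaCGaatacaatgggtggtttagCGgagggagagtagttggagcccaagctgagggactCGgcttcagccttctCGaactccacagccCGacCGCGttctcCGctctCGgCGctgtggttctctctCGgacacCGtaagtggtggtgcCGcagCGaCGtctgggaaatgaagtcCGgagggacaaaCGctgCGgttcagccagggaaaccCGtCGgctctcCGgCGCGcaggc
PCDHA6 (chr5:140827710-140827959, plus strand): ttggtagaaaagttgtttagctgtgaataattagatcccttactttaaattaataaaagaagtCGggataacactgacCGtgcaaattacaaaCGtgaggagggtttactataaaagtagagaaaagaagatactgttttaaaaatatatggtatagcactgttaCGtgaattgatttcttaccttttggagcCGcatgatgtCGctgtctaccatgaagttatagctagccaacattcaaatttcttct
MYH6 (chr14:23408274-23408523, minus strand): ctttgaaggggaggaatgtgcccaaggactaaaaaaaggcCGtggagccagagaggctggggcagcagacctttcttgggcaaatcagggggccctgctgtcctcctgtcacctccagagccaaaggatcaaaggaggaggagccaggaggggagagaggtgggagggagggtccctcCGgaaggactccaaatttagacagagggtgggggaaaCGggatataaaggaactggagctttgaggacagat
The HOTTIP stretch holds 38 CG, that of ZNF879 23, that of CYP26A1 22, that of GNG8 14, that of PCDHA6 6 and that of MYH6 3. Another CYP26A1 start in the same interval has 10 CG in its 250 bases upstream, and the 6 were picked from 19 such stretches. Among these 6, CpG-dense stretches thus lie both in an interval whose share rose (ZNF879) and in intervals whose share fell. Over the intervals of exon and transcript-end peaks with a promoter window, the median log2 ratio of GSK-126 to vehicle was -1.01 with fewer than 10 CG, -0.94 with 10 to 19 and -0.97 with 20 or more. The corresponding fenretinide medians were -0.21, -0.39 and -0.37.

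A set of 51 microRNA hairpins, of 1558 in the RefSeq table, also lay inside exon and transcript-end peaks, in 35 intervals. The mature forms that share a seed (bases 2 to 8, in capitals, the part that pairs with target RNAs) made 4 pairs. They are shown because each pair lies in 1 cluster of hairpins.
miR-200b-3p: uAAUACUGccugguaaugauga
miR-429: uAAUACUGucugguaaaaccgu
miR-208a-3p: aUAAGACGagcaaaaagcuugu
miR-208b-3p: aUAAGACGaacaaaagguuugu
miR-487a-5p: gUGGUUAUcccugcuguguucg
miR-487b-5p: gUGGUUAUcccuguccuguucg
miR-323b-5p: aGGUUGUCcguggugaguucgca
miR-494-5p: aGGUUGUCcguguugucuucucu
The miR-200b and miR-429 hairpins, of the family that restrains ZEB transcription factors and the epithelial-mesenchymal transition, lie under an exon peak of TTLL10 on chromosome 1. That interval held 1527 fragments in the vehicle library, 611 with GSK-126, 928 with fenretinide and 573 with both. The miR-208 pair is encoded in introns of the cardiac myosin genes, within the wide MYH6 peak described below. The miR-487 pair and the pair of miR-323b and miR-494 belong to the imprinted chromosome 14 cluster, whose interval held 722, 974, 746 and 864 fragments, a GSK-126 ratio of 1.43 that was not called and that falls below 1 with background scaling.

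The peaks were short in most cases and very long in a few. Their length ran from 259 to 224676 bases, with quartiles of 769, 1658 and 4334 bases, and they covered 19 of the 703 Mb under all vehicle peaks (2.7%). Of the exon peaks, 296 lay at a first exon, 1025 at an internal exon, 1200 at a last exon and 234 at the exon of a single-exon transcript. The peaks named 3772 host genes, meaning the gene whose exon or end the annotation gives, of which 3186 matched a RefSeq symbol. In 35.2% of the peaks the host was not the gene with the nearest transcription start, and 14.9% of the peaks contained that start. The authors' peak score ran from 10 to 116 with a median of 18.

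The total over all intervals was 17133107 fragments for vehicle, 16156194 for GSK-126, 18928836 for fenretinide and 15812933 for both compounds. Intervals of exon and transcript-end peaks took 7.06%, 5.9%, 6.6% and 5.84% of these. Their median density was 13.5 fragments per kb in the vehicle library, 6.56 with GSK-126, 12.2 with fenretinide and 7.13 with both, whereas the median over all intervals was 8.13, 7.83, 9.68 and 8.41. With GSK-126, alone or combined, density was thus well below vehicle at these intervals, while over all intervals it was near the vehicle value. The former were chosen by a vehicle peak, and all intervals also include those without one.

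Each ratio below is a ratio of library shares, the fragments in the interval divided by the library's total. No spike-in is named in the labels, so a change of the mark in the whole genome would not appear in it. Intervals with 20 or more fragments in the libraries compared were tested. A higher call needed a ratio of 2 or more, a lower call 0.5 or less, and both needed a 95% counting interval (exact Clopper-Pearson) that left out 1. These intervals cover counting error only, and with 1 library per condition there is no replicate and no p-value. The members were chosen by a peak in the vehicle library, which is also the denominator, so values for members chosen in a library outside the comparison are given as well.

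With GSK-126 the mark fell widely at exon and transcript-end peaks. Of 3476 intervals with enough fragments (806 had too few), 1428 were called lower (41.1%), against 21.6% of all intervals, and 148 higher (4.26%), against 25.9% of all intervals. The median log2 ratio over all 4282 intervals was -0.98 (95% order-statistic interval -1.01 to -0.95, which covers variation between intervals, not between cultures), and 0.08 over all intervals of the table. All intervals with a vehicle peak but no exon or transcript-end peak had a median of -0.67, with 28.8% lower and 11.8% higher. Of these, intervals of promoter peaks had a median of -0.97 (-1.01 to -0.93), those of intron peaks -0.80 and those of intergenic peaks -0.57. Exon and transcript-end peaks thus lay with promoter peaks, their intervals overlapping, and below intron and intergenic peaks. Exon and transcript-end intervals chosen from the fenretinide peak list had a median of -0.79 (-0.83 to -0.75), again near promoter intervals (-0.83) and below intron (-0.44) and intergenic ones (-0.21).

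**Figure D1:**
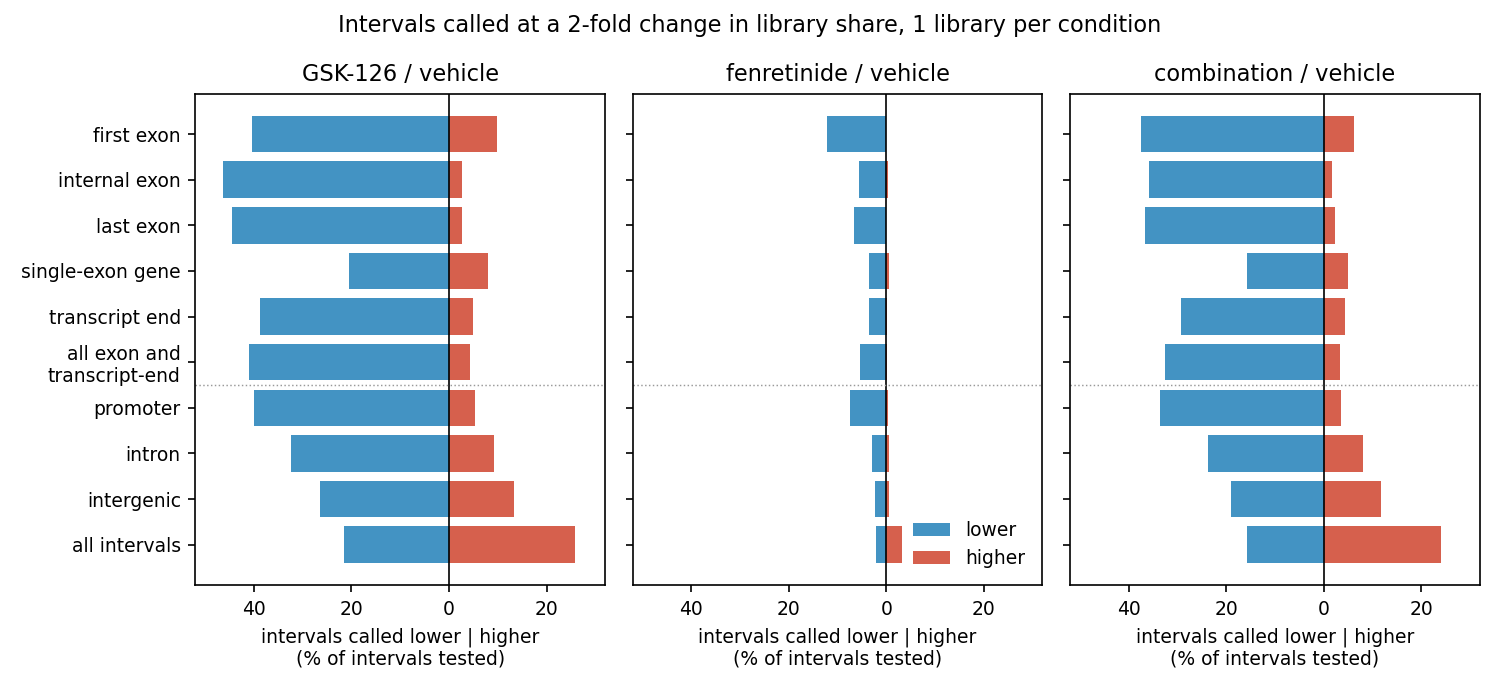
Share of tested intervals called lower (left of 0) or higher (right of 0) than vehicle, in percent, by the place of the vehicle peak, in 1 panel per treatment with 1 library per condition. With GSK-126, 41.1% of exon and transcript-end intervals were lower and 4.26% higher, while with fenretinide 5.34% were lower.

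Within the class, intervals of single-exon transcripts stood apart from the rest. That group is a kind of transcript rather than a place in one, and it includes the 9 KCNQ1OT1 intervals described below. How far its value depends on the gene families in it was not tested. The median log2 ratio of GSK-126 to vehicle was -0.99 (-1.11 to -0.85) at first exons, -1.04 at internal exons, -1.07 at last exons and -0.96 at transcript ends. At single-exon transcripts it was -0.47 (-0.63 to -0.31), with 15 of 186 tested intervals higher and 38 lower. At last exons 404 of 910 were lower and 24 higher, at internal exons 373 of 805 and 21, at transcript ends 518 of 1340 and 65, and at first exons 95 of 235 and 23. Host genes that code for protein had a median of -1.04, long noncoding RNAs -0.91, transcribed pseudogenes -0.86 and microRNA genes named as the host -0.89.

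The intervals were merged over the libraries' peaks, so how much of one the vehicle peaks fill depends in part on the GSK-126 peaks themselves. Values split by this cover are therefore a description of the intervals, not independent of the change. Where vehicle peaks covered at least 75% of the interval, the median log2 ratio with GSK-126 was -1.33 (-1.36 to -1.29), and 1101 of 1874 tested intervals were lower and 1 higher. At 50 to 75% it was -0.54, at 25 to 50% -0.15, at 10 to 25% 0.28 and below 10% 1.40 (0.93 to 1.71), where 23 of 38 tested intervals were higher and 0 lower. Intervals of other vehicle peaks followed the same order, at -1.25, -0.40, 0.08, 0.57 and 1.27. A low cover means that peaks of other libraries extend the interval beyond the vehicle peak. Intervals whose vehicle peaks were all of the exon and transcript-end kind (2676) had a median of -1.31 (-1.36 to -1.29), and the 1606 that also held other vehicle peaks -0.47 (-0.52 to -0.42).

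**Figure D2:**
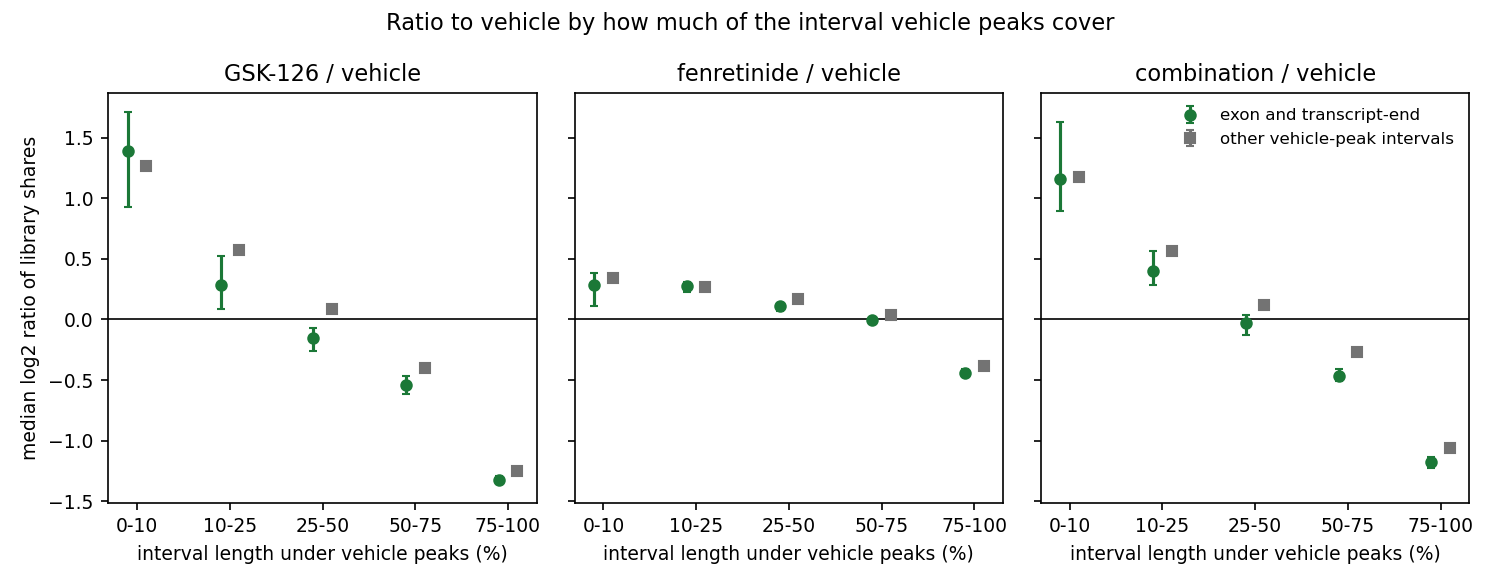
Median log2 ratio of library shares to vehicle, with its 95% order-statistic interval, against the percent of the interval covered by vehicle peaks, for exon and transcript-end intervals and for the intervals of other vehicle peaks. Exon and transcript-end medians with GSK-126 are 1.40 at the lowest cover and -1.33 at the highest; the cover itself depends on the peaks of the treated libraries.

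The comparison was also made inside genes that have both kinds of peak. In 1071 host genes with enough fragments over both exon or transcript-end and intron intervals, the log2 ratio of GSK-126 to vehicle was lower over the exon or transcript-end intervals by a median difference of -0.21 (-0.26 to -0.14), and in 60.2% of the genes it was below that of the intron intervals. With fenretinide the difference was -0.07 (-0.10 to -0.05, 1189 genes) and with the combination -0.23 (-0.29 to -0.18, 1090 genes).

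The largest falls with GSK-126 included genes of skin, sensory neurons, photoreceptors and the HOXA cluster. At the transcript end of WFDC3, which encodes a protein with a protease-inhibitor type domain (chr20:45771949-45775344, GRCh38), 215 fragments in the vehicle library became 26 with GSK-126, 171 with fenretinide and 46 with both. The GSK-126 ratio was 0.128 (0.0819 to 0.193). DLX3, a homeobox gene of skin, hair and placenta, had its peak at the last of 3 exons (chr17:49985400-49996547) and went from 491 fragments to 73, 296 and 107, a GSK-126 ratio of 0.158 (0.122 to 0.202). In both, the vehicle and fenretinide libraries were high and the GSK-126 and combination libraries low.

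HOTTIP, a long noncoding RNA at the distal end of the HOXA cluster, had a peak at exon 3 of 4 (chr7:27196554-27208094). It held 146 fragments in the vehicle library, 21 with GSK-126, 70 with fenretinide and 24 with both. The GSK-126 ratio was 0.153 (0.0917 to 0.242). GNG8, a G protein gamma subunit of sensory neurons, went from 254 fragments to 36, 145 and 39, with a GSK-126 ratio of 0.150. GUCA1A, an activator of guanylate cyclase in photoreceptors, went from 124 to 16, 81 and 20 (ratio 0.137), and the F-box gene FBXO47 from 237 to 37, 189 and 64 (0.166). In these 4 intervals, as in WFDC3 and DLX3, fenretinide alone lay between vehicle and the GSK-126 libraries. The noncoding loci AC105053.3 (160, 18, 122 and 55 fragments) and LOC115110 (105, 13, 84 and 20) completed the 8 largest falls.

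The largest rises with GSK-126 were over zinc-finger gene clusters, where a short vehicle peak lay inside a very wide GSK-126 domain. The peak in ZNF585A, a KRAB zinc-finger gene on chromosome 19, was 1243 bases long and lay inside a GSK-126 peak of 113953 bases and a combination peak of 112687 bases, while the overlapping fenretinide peak was 3782 bases. Its interval (chr19:37084500-37198452) held 263 fragments in the vehicle library, 3764 with GSK-126, 475 with fenretinide and 2957 with both. The GSK-126 ratio was 15.2 (13.4 to 17.3). ZNF382 (exon 4 of 5) behaved likewise, with a vehicle peak of 1079 bases in a GSK-126 peak of 85619 bases. It held 269, 2786, 404 and 2373 fragments, a GSK-126 ratio of 11 (9.69 to 12.5).

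LOC100996349, in a zinc-finger cluster on chromosome 19 (chr19:22168539-22752418), held 1551, 17651, 2782 and 12902 fragments, a GSK-126 ratio of 12.1 (11.5 to 12.7). Its neighbour ZNF99 held 797, 6134, 1209 and 4952 (8.16), and ZSCAN18, farther along the same chromosome, 1017, 6976, 1256 and 4777 (7.27). Outside chromosome 19, the homeobox gene ANHX at exon 2 of 9 (chr12:133182151-133265078) held 392, 3913, 528 and 2837 fragments, a GSK-126 ratio of 10.6 (9.54 to 11.8). The transcript end of ZFP90 on chromosome 16 held 195, 1712, 250 and 1342, a ratio of 9.31 (8.02 to 10.9). The protocadherin genes PCDHB14 and PCDHB18 with the pseudogene PCDHB19P shared an interval (chr5:141223627-141320136) with 441, 3266, 559 and 2423 fragments, a ratio of 7.85 (7.11 to 8.69). In all 8 the GSK-126 library was the highest, the combination next and the vehicle library the lowest. These are values of whole intervals, of which vehicle peaks covered between 4.81% (LOC100996349) and 17.0% (ZSCAN18), and zinc-finger and protocadherin genes have close copies between which reads can be split.

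Host genes were also grouped into lists, built by symbol and chosen with earlier results of these data known. Each count with GSK-126 stands beside 41.1% lower, 4.26% higher and a median of -0.98 over all exon and transcript-end intervals, and 21.6%, 25.9% and 0.08 over all intervals. The differences between lists were not tested. Genes named below beyond the 2 intervals of each list with the most vehicle fragments were chosen after their values were seen. Of the 46 zinc-finger intervals, 44 could be tested with GSK-126, of which 18 were higher and 9 lower, with a median log2 ratio of 0.06 (-0.48 to 1.63). The 15 on chromosome 19 had 11 higher and 0 lower and a median of 2.04 (0.40 to 2.86), whereas the other 156 exon and transcript-end intervals of that chromosome had 5 higher and 72 lower of 128 and a median of -1.31. The 31 zinc-finger intervals on other chromosomes had 7 higher and 9 lower of 29 and a median of -0.32. Scaling to sparse background intervals, which shifts GSK-126 log2 ratios by -0.77, puts the median of the whole zinc-finger list below 0. It leaves that of the chromosome 19 intervals above 0, and that of the protocadherins described next (0.80) only barely so. The lower ends of both order-statistic intervals, 0.40 and 0.11, are smaller than that shift and fall below 0. The interval of ZFP2, ZNF454, ZNF879 and the glutamate receptor gene GRM6 on chromosome 5 held 3061, 14180, 4059 and 11087 fragments, a GSK-126 ratio of 4.91. The interval of ZNF542, ZFP28 and ZNF835 held 2853, 11421, 3872 and 9243 (4.25).

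The clustered protocadherins, cell-surface proteins that give neurons their identity, filled 14 intervals with 33 genes. With GSK-126, 6 were higher, 0 lower and 8 neither, and the median was 0.80 (0.11 to 1.53). The interval of PCDHA1 to PCDHA6 held 1342 fragments in the vehicle library, 3571 with GSK-126, 1552 with fenretinide and 3062 with both, a GSK-126 ratio of 2.82. That of PCDHA11 and PCDHA12 held 936, 1479, 1132 and 1314 (1.68, not called). Both had their lowest value in the vehicle library.

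HOX genes, which set position along the body axis, had few exon or transcript-end intervals (4), of which 3 could be tested and all 3 were lower with GSK-126. HOXC13 and HOXC12 shared an interval with 888, 269, 668 and 322 fragments, a ratio of 0.321. HOXA11-AS, antisense to HOXA11, held 198, 61, 141 and 62 (0.327). The third, HOXD12, held 62, 16, 35 and 20 (0.274). All 3 had fenretinide between vehicle and the GSK-126 libraries.

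Developmental transcription factors had 54 intervals, of which 48 were tested with GSK-126, 3 higher and 22 lower (45.8%), with a median of -0.99 (-1.50 to -0.34), near the whole class. The symbol rule also took in TBXA2R, a thromboxane receptor. FOXA3, a liver and gut forkhead factor, held 553, 111, 398 and 166 fragments, a ratio of 0.213. Those that rose included SOX11, a factor of neural progenitors (648, 3369, 840 and 2704 fragments, ratio 5.51, 5.07 to 6.01), and the interval of the neighbouring ZIC4 and ZIC1 (330, 1269, 344 and 932, ratio 4.08). ZIC4 and ZIC1 encode zinc-finger factors of the early nervous system. The intervals with the most vehicle fragments were TBX15 (1430, 1797, 1797 and 1750) and NEUROD4 (780, 326, 864 and 378), the first not called with GSK-126 (1.33) and the second lower (0.443).

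The list of WNT, BMP, FGF and TGF-beta genes, which by its symbol rule also took in the receptors FGFR2 and BMPR1B and the receptor-associated TGFBRAP1, had 23 intervals. Of 19 tested with GSK-126, 11 were lower (57.9%) and 0 higher, and the median was -1.27 (-1.36 to -0.61). FGFR2 held 6012, 2323, 6472 and 2993 fragments, a ratio of 0.410, and GDF3 611, 238, 735 and 309. BMP4, a bone morphogenetic protein, held 171, 37, 97 and 36 (0.229, 0.156 to 0.329). WNT1 held 353, 117, 253 and 114 (0.351). IGF2, an imprinted growth factor, held 279, 274, 190 and 221 and did not pass (1.04).

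Several lists lay near the shares of the whole class. Of 149 ion channel and transmitter receptor intervals, 123 were tested, 47 lower (38.2%) and 3 higher, with a median of -0.94. By its symbol rule this list also took in HTRA3, a protease, ADRBK2, a receptor kinase, and a few antisense or overlapping noncoding genes such as KCNQ1OT1. Synaptic adhesion genes had 46 intervals, 32 tested, 13 lower (40.6%) and 3 higher, and a median of -0.91. By its symbol rule this list also took in genes of other tissues, such as the endothelial cadherin CDH5. The channel interval with the most vehicle fragments after KCND3 was HCN4, a pacemaker channel of the heart (3429, 1712, 3345 and 1903, ratio 0.529). Of the adhesion genes CNTNAP4 held 491, 290, 611 and 287 (0.626), neither called. The 3 rises in adhesion genes were CNTN4 (166, 790, 208 and 620 fragments, ratio 5.05), CNTNAP2 (69, 155, 80 and 155, 2.38) and LRRTM1 (2.39), while the cadherin gene CDH22 held 3777, 806, 3043 and 1103 (0.226). Collagens and matrix enzymes had 31 intervals, 26 tested, 10 lower (38.5%) and 1 higher, and a median of -0.72. Their symbol rule also took in ADAMTS-like genes such as ADAMTSL2. ADAMTSL2 held 3771, 1378, 2902 and 1347 (0.388) and COL6A6 1324, 1056, 1482 and 1123 (0.846). COL16A1 held 134, 24, 125 and 47 (0.190), and the rise was COL22A1 (611, 1410, 778 and 1227, 2.45). Solute carriers had 79 intervals, 60 tested, 29 lower (48.3%) and 1 higher, and a median of -1.04. SLC13A3, a kidney dicarboxylate transporter, held 9646, 5169, 9685 and 5884 (0.568), and SLC22A25 5833, 4241, 6774 and 4806 (0.771), short of the 2-fold rule.

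Olfactory receptor genes stood nearer to 0 than most lists. Of 88 intervals 76 were tested with GSK-126, 8 lower (10.5%) and 5 higher, and the median was -0.28 (-0.50 to -0.02). The intervals of OR3A2 (4994, 4434, 5796 and 4348 fragments) and OR6C4 (3544, 3951, 4340 and 3870) kept close to their vehicle share, at 0.942 and 1.18. OR7G2 and OR7G3 shared an interval with 1581, 451, 1548 and 623 fragments (0.303), while OR11H1 held 95, 304, 146 and 249 (3.39). These genes have many close copies, and values of single ones are uncertain. Keratin and keratin-associated genes had 16 intervals, 15 tested, 5 lower (33.3%) and 0 higher, and a median of -0.92. KRT77 held 7460, 3678, 7008 and 3912 (0.523) and KRTAP12-2 1857, 935, 1490 and 936 (0.534). KRT9, a keratin of palms and soles, held 431, 164, 338 and 196 (0.404).

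The blood and immune list had one of the lowest medians of the lists, -1.36 (-1.50 to -0.99), with 21 of 37 tested lower (56.8%) and 0 higher of 47 intervals. Its symbol rule, largely CD or IL followed by digits, also took in genes not particular to blood, such as CD248 and IL1RAPL2. CD300A, an inhibitory receptor of leukocytes, held 11363, 4390, 10862 and 5077 fragments. CD22, a B-cell receptor regulator, held 1320, 368, 1119 and 410 (0.296). The T-cell coreceptor gene CD4 held 110, 25, 66 and 28 (0.241), and the globin gene HBA2 172, 44, 94 and 43 (0.271). Of 15 urothelial and luminal markers, 2 had an exon or transcript-end peak. They were GRHL3 (29, 13, 32 and 12 fragments) and ELF3 (9, 1, 4 and 1), both transcription factors of the urothelium and both with few fragments. GRHL3 could be tested and was lower with GSK-126 (0.475), and ELF3 could not. Of 13 markers of other cell types, 3 had such a peak, namely CD3E, HBA2 and CDH5. Noncoding genes, the largest list with 831 intervals, had 234 lower (34.3%) and 41 higher of 683 tested and a median of -0.88. Those with the most vehicle fragments were MIR4417 (9915, 6101, 9456 and 5864, ratio 0.653) and LOC101927998 (8127, 5028, 9227 and 5525, ratio 0.656).

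**Figure D3:**
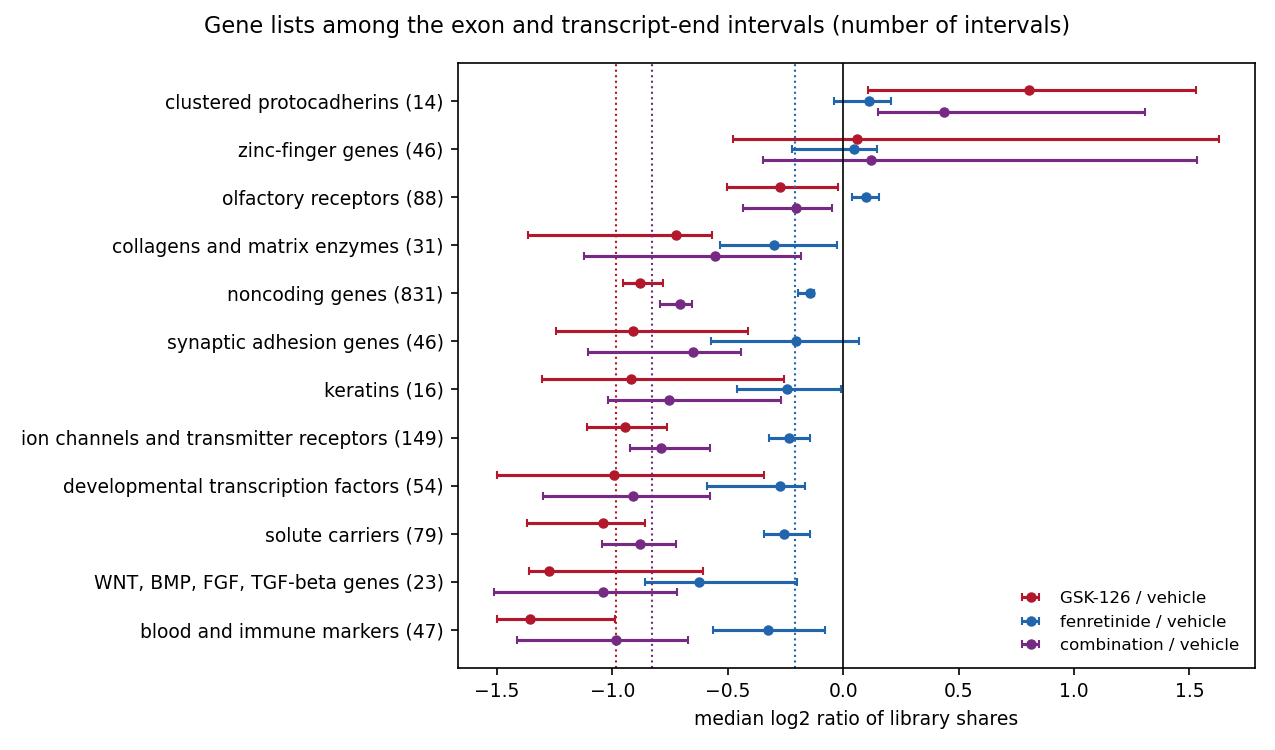
Median log2 ratio of library shares to vehicle for the gene lists with at least 6 intervals, with 95% order-statistic intervals, for each treatment; dotted lines give the median over all exon and transcript-end intervals. With GSK-126, clustered protocadherins lie at 0.80 and blood and immune markers at -1.36.

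Of the 35 intervals with a microRNA hairpin inside the peak, whatever the host gene, 34 were tested with GSK-126. Of these 14 were lower and 1 higher, and the median was -0.90 (-1.35 to -0.66), near the 41.1% lower, 4.26% higher and -0.98 of all exon and transcript-end intervals. The miR-200b and miR-429 interval had a ratio of 0.424 (0.386 to 0.466). The interval with miR-375, a microRNA of pancreatic islets, under an exon peak of CCDC108, held 195, 83, 165 and 101 fragments (0.451). The rise was at miR-7515 (383, 1099, 479 and 918, ratio 3.04, 2.71 to 3.43).

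The named intervals of the densest, widest and highest-scoring peaks mostly had a lower share with GSK-126. The densest were ranked by vehicle fragments, the denominator of the ratio, which favours falls, and dense intervals as a group were not tested. The GSK-126 median was -0.99 for peaks of 4425 to 224676 bases and -1.14 for those of 259 to 788 bases. It was -1.09 (-1.15 to -1.01) at scores of 26 to 116 and -0.99 (-1.10 to -0.93) at scores of 10 to 15. Between these it was -0.91 (-0.98 to -0.82) and -0.93 (-1.02 to -0.85). The whole class had -0.98, near the widest peaks. The interval of the highest scores overlaps that of the lowest. At the highest scores 539 of 1033 tested intervals were lower and 19 higher, and at the lowest 153 of 559 and 43. At the widest peaks the counts were 531 of 1071 and 8, and at the narrowest 99 of 495 and 55. Such calls also depend on fragment number. Of the intervals with the most vehicle fragments per kb, FLJ16779 held 902, 234, 584 and 226 fragments, RP11-305P22.9 2167, 870, 1674 and 897, and NCR1, a natural killer cell receptor, 526, 168, 496 and 171. KCNQ1OT1, the long noncoding RNA of an imprinted cluster, held 1757, 1556, 1919 and 1622, with ratios of 0.939 (0.877 to 1.01) for GSK-126 and 1.00 (0.934 to 1.07) for the combination. That interval holds most of the gene's fragments, and the sum over its 9 intervals (2089, 1804, 2231 and 1848, GSK-126 ratio 0.916, 0.859 to 0.976) rests on it. Of the other 8 smaller intervals, 7 had GSK-126 ratios between 0.245 and 0.509, among them 73 to 25 fragments (0.363) and 47 to 15 (0.338), both called lower, and 1 went from 130 to 177 (1.44, not called). REXO1L1P rose to 3940 from 1754 (1969 and 3012 in the other two), but it belongs to a tandem repeat family, and its count is uncertain.

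The widest peak, 224676 bases at the potassium channel gene KCND3, had 8154, 4467, 8306 and 4856 fragments, a GSK-126 ratio of 0.581. MYH6, the cardiac myosin heavy chain, held 3570, 1763, 3048 and 1777, LOC100132174 6689, 3123, 5961 and 3325 (0.495), and KIF26A, a kinesin-family gene, 21406, 8641, 16651 and 8374 (0.428). TTN, which encodes the giant muscle protein titin, had 12 peaks in 9 intervals, together 986, 568, 1167 and 647 fragments, a ratio of 0.611 (0.550 to 0.678). The highest scores were at MEIS1-AS3 (116), GOLGA6L1 (115), REXO1L1P (115) and LOC646214 (109). MEIS1-AS3 held 225, 71, 254 and 88 fragments (0.335). GOLGA6L1 (32, 9, 40 and 10) and LOC646214 (401, 208, 400 and 241) are members of repeated families with uncertain counts.

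**Figure D4:**
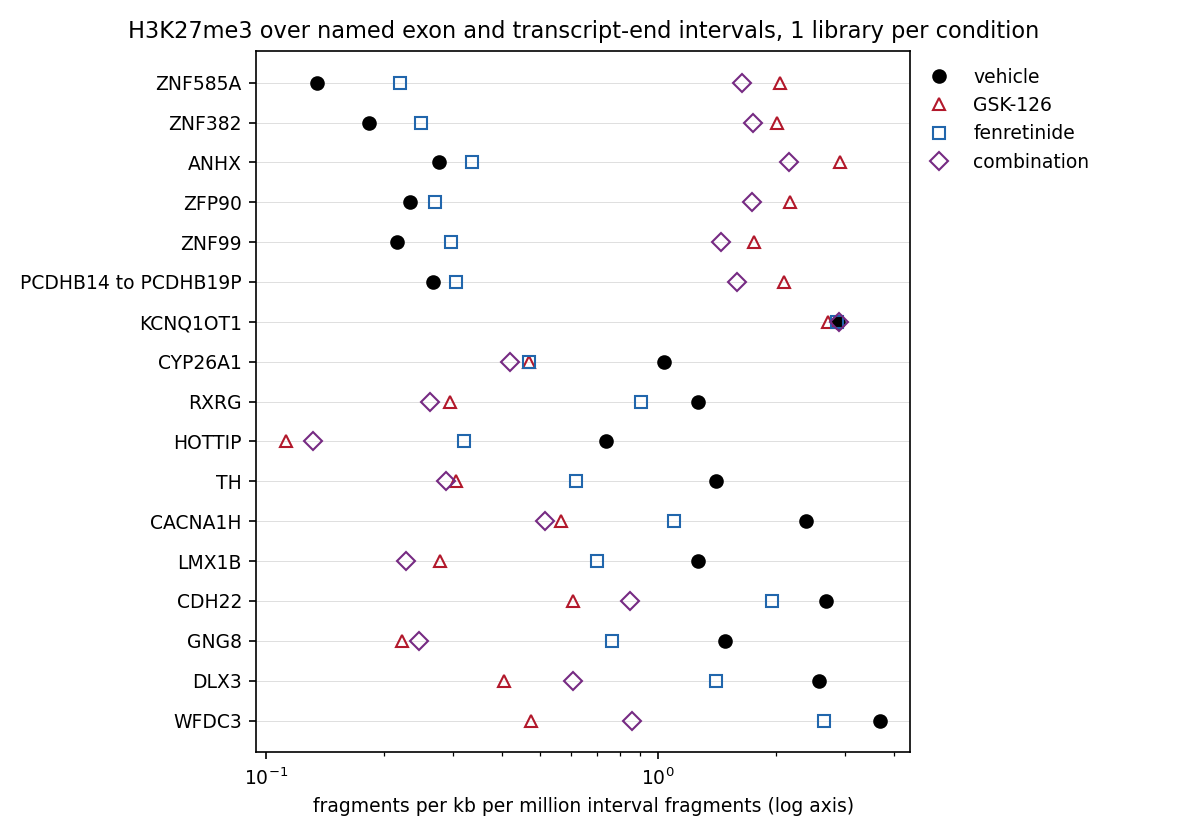
Fragments per kb of interval, scaled to the library total (log axis), in each of the 4 libraries for 17 named intervals, 1 library per condition. ZNF585A and the other zinc-finger and protocadherin rows have GSK-126 and combination to the right of vehicle, KCNQ1OT1 has all 4 together, and CYP26A1 to WFDC3 have them to the left.

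Fenretinide alone changed few exon and transcript-end peaks. Nearly all calls were falls where members were chosen from the vehicle list, the denominator, which favours falls. Where they were chosen from the GSK-126 list, 1.82% were lower and 1.20% higher. Of 3687 tested intervals (595 had too few fragments), 197 were lower (5.34%), against 2.16% of all intervals, and 5 higher (0.136%), against 3.31% of all intervals. The median log2 ratio was -0.21 (-0.23 to -0.19), and 0.10 over all intervals. Promoter intervals had a median of -0.27, intron intervals -0.10 and intergenic intervals -0.07. Intervals chosen from the GSK-126 peak list had a median of -0.10 (-0.11 to -0.08), with 53 lower and 35 higher of 2909. The median was -0.38 (-0.48 to -0.29) at first exons, where 30 of 245 tested were lower and 0 higher, -0.23 at internal exons, -0.25 at last exons, -0.18 at transcript ends and -0.08 at single-exon transcripts.

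CACNA1H, a T-type calcium channel gene with its peak at exon 14 of 34 (chr16:1183757-1228439), held 1824 fragments in the vehicle library, 409 with GSK-126, 932 with fenretinide and 364 with both. Its fenretinide ratio was 0.462 (0.427 to 0.501). TH, which encodes tyrosine hydroxylase, the rate-limiting enzyme of catecholamine synthesis, held 319, 65, 155 and 60, a fenretinide ratio of 0.440 (0.361 to 0.534). HOTTIP, given above, had a fenretinide ratio of 0.434 (0.322 to 0.581). In all 3 the fenretinide library lay below vehicle and above the GSK-126 and combination libraries. Also among the 8 largest falls were LRRC32, which displays latent TGF-beta on regulatory T cells (77, 18, 31 and 16), LRTM2 (211, 70, 104 and 52), the matrix protein gene PAPLN (504, 99, 276 and 112), the noncoding RNA CISTR (271, 50, 142 and 71) and RP11-554A11.6 (98, 20, 43 and 31).

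The 5 rises with fenretinide had few fragments and fell short of the minimum for named genes, and they were named after their values were seen. The sodium channel gene SCN2A went from 17 to 40 fragments (2.13, 1.18 to 4.01) and an interval of TTN from 21 to 47 (2.03, 1.19 to 3.57). DPY19L2P4 and OR13C5 each went from 10 to 24, and LOC102723631 from 7 to 24.

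Retinoid pathway genes had 5 intervals, of which 3 could be tested. CYP26A1, which clears retinoic acid by oxidation and is a classic retinoid target, had its peak at exon 2 of 7 (chr10:93071484-93076905). It held 96 fragments in the vehicle library, 41 with GSK-126, 48 with fenretinide and 36 with both. The ratios were 0.453 (0.306 to 0.659) for GSK-126, 0.453 (0.313 to 0.646) for fenretinide and 0.406 (0.269 to 0.602) for the combination, so that all 3 treated libraries lay together below vehicle. The neighbouring CYP26C1 held 24, 24, 12 and 15 fragments, lower with fenretinide only under the call rule (0.453). RXRG, a retinoid X receptor, at the last of 11 exons, held 105, 23, 83 and 20, lower with GSK-126 (0.232, 0.141 to 0.367) and not called with fenretinide (0.715). LRAT and RXRA had too few fragments to test.

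Among Polycomb subunits, CBX7, a reader of H3K27me3 in the partner complex PRC1, held 38, 11, 18 and 10 fragments and was lower with each treatment (0.307, 0.429 and 0.285). CBX2 held 6, 2, 3 and 2 and could not be tested. The list counts that follow stand beside 5.34% lower and 0.136% higher with fenretinide over all exon and transcript-end intervals, and 2.16% and 3.31% over all intervals. In the WNT, BMP, FGF and TGF-beta list 3 of 19 tested intervals were lower with fenretinide (15.8%) and 0 higher, with a median of -0.62 (-0.86 to -0.20). They were WNT7A (272, 102, 149 and 85 fragments, fenretinide ratio 0.496), WNT2B (26, 5, 5 and 12) and WNT8B (20, 5, 5 and 11). Of 40 intervals of the blood and immune list tested, 5 were lower, namely HBA2, IL1F10, CD248, IL10 and IL10RA, and the median was -0.32. Zinc-finger intervals had 3 of 45 lower (6.67%, near the share of the whole class) and 0 higher. Protocadherins had 0 of 14 in either direction, with a median of 0.11 (below 0 with the DESeq2, TMM and background scalings).

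With the combination the mark again fell at many of these peaks. Of 3489 tested intervals (793 had too few fragments), 1136 were lower (32.6%), against 15.8% of all intervals, and 119 higher (3.41%), against 24.1% of all intervals. The median log2 ratio was -0.83 (-0.86 to -0.80), and 0.12 over all intervals, with promoter intervals at -0.85, intron at -0.60 and intergenic at -0.43. By place it was -0.84 at first, -0.88 at internal and -0.93 at last exons, -0.78 at transcript ends and -0.43 at single-exon transcripts. Chosen from the fenretinide peak list, the intervals had a median of -0.66 (-0.68 to -0.62). This comparison and those of the single compounds share the vehicle library.

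Of the 8 largest falls with the combination, CACNA1H (0.216), TH (0.204), HOTTIP (0.178) and GNG8 (0.166) have been described. TMEM105 held 180 fragments in the vehicle library, 44 with GSK-126, 95 with fenretinide and 25 with both, a combination ratio of 0.150. LMX1B, a LIM homeobox gene of limb and kidney development, held 271, 56, 165 and 45 (0.180). EGR2, a transcription factor of the hindbrain and of myelinating Schwann cells, held 99, 21, 58 and 14 (0.153). LOC101928841 held 142, 22, 81 and 23 (0.175). The largest rises were again ZNF585A (12.2, 10.7 to 13.9), ZNF382 (9.56), ANHX (7.84) and the other cluster intervals given above, with ZNF534 and ZNF578 (646, 4268, 852 and 3210 fragments). The list counts that follow stand beside 32.6% lower and 3.41% higher over all exon and transcript-end intervals. Of the lists, chromosome 19 zinc-finger intervals had 11 of 15 higher and 0 lower, with a median of 1.81 (0.49 to 2.43). Protocadherins had 3 of 14 higher and 0 lower, with a median of 0.44 (0.15 to 1.31) that falls below 0 with background scaling, a shift of -0.81. Developmental transcription factors had 20 of 47 lower and 3 higher (median -0.91), blood and immune genes 14 of 37 lower and 0 higher (-0.98), and the WNT, BMP, FGF and TGF-beta genes 8 of 19 lower and 0 higher (-1.04).

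Set directly against GSK-126 alone, the combination changed little. Of 2986 tested intervals (1296 had too few fragments), 43 were higher (1.44%), against 2.48% of all intervals, and 25 lower (0.837%), against 1.82% of all intervals. The median was 0.05 (0.03 to 0.07), close to the 0.06 over all intervals. With DESeq2 size factors the counts were 25 higher and 35 lower and with edgeR TMM factors 26 and 33, so the direction of this small difference depends on the scaling. The named falls were EPPK1, which encodes the cytoskeletal linker epiplakin (51, 250, 52 and 108 fragments in the order used above, ratio 0.441, 0.349 to 0.555), and the repeat-family loci LOC102723570 (47, 93, 62 and 38) and CXADRP2 (67, 78, 74 and 34), whose counts are uncertain. No rise reached the minimum of 100 fragments. AC105053.3 rose from 18 fragments with GSK-126 to 55 with both (3.12, 1.81 to 5.65), a value noticed among the genes named for GSK-126.

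Against fenretinide alone, 682 of 3348 tested intervals (934 had too few fragments) were lower with the combination (20.4%), against 12.1% of all intervals, and 117 higher (3.49%), against 18.6% of all intervals. The median was -0.52 (-0.55 to -0.49), and 0.05 over all intervals, with promoter intervals at -0.48, intron at -0.41 and intergenic at -0.26. With scaling to sparse background intervals the counts were 2015 lower and 29 higher. CTCFL, the germline paralogue of the insulator protein CTCF, held 134 fragments (vehicle), 32 (GSK-126), 123 (fenretinide) and 27 (both), a ratio to fenretinide of 0.263. FAM83H-AS1 held 128, 29, 118 and 25 (0.254), C11orf21 187, 48, 186 and 45 (0.290) and UMODL1 275, 71, 235 and 61 (0.311). GAGE1, a cancer-testis antigen gene with near-identical copies, held 206, 58, 253 and 62 (0.293, uncertain). In all 5 of these falls vehicle and fenretinide were high and both GSK-126 libraries low. The largest rises of this comparison are not listed. Zinc-finger intervals had 19 of 43 higher and 5 lower, with a median of 0.38. The 15 on chromosome 19 had 11 higher and 0 lower, with a median of 1.53 (0.39 to 2.19). Protocadherins had 3 of 14 higher and 0 lower, with a median of 0.44. Background scaling, a shift of -0.68, leaves only the chromosome 19 median above 0. The lower end of its interval, 0.39, then falls below 0.

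The peak calls of the other libraries gave a further view that does not use the fragment counts. Of the 4497 peaks, 48.8% (exact Clopper-Pearson interval 47.3 to 50.3) overlapped a GSK-126 peak by at least 1 base, 74.0% (72.7 to 75.2) a fenretinide peak and 60.8% (59.4 to 62.2) a combination peak. Promoter peaks overlapped in 54.2%, 75% and 64.3%, intron peaks in 58.5%, 79.3% and 70.1%, and intergenic peaks in 63.8%, 79.2% and 74.3%. Exon and transcript-end peaks thus had the lowest overlap of the 4 kinds with GSK-126 and combination peaks, while with fenretinide their interval included the promoter value. With scores of at least 20 on both sides, the combination overlap was 34.8% (32.7 to 36.9), against 36.6% (33.8 to 39.5) for promoter peaks, so these intervals overlapped. The fenretinide overlap was then 70.9%, above the 68.2% of promoter peaks. Last-exon peaks overlapped a GSK-126 peak least (44.5%, 41.7 to 47.4) and peaks of single-exon transcripts most (70.5%, 64.2 to 76.3). No other library had an overlapping peak for 783 peaks (17.4%), all 3 had one for 1792 (39.8%), and only fenretinide had one for 743 (16.5%). Peak numbers differ between libraries, and the share kept depends on how much each library's list covers.

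**Figure D5:**
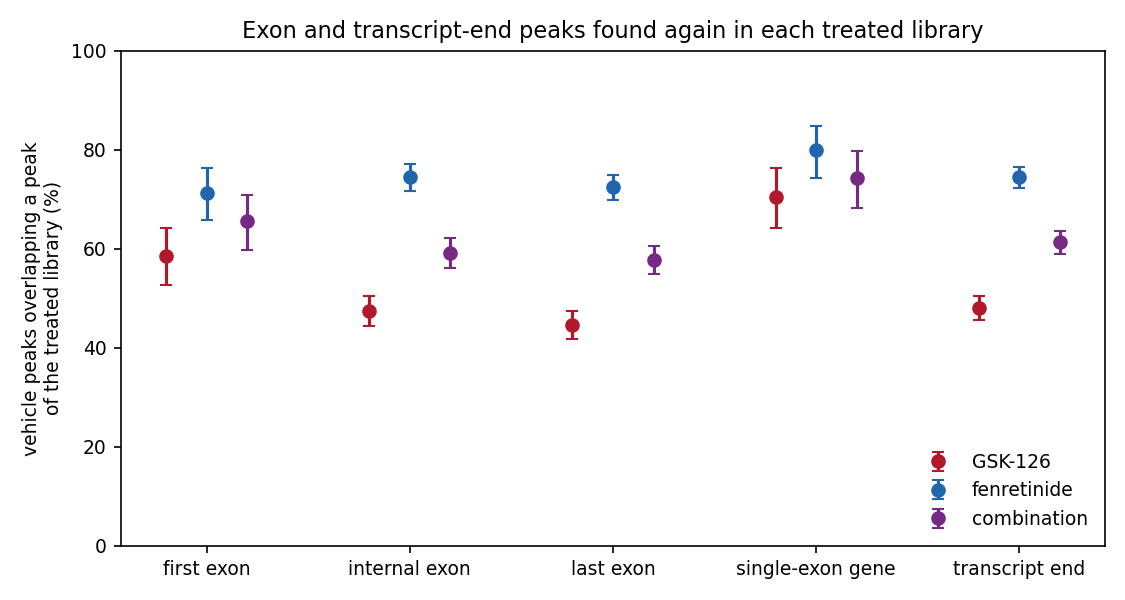
Percent of vehicle peaks that overlap a peak of each treated library by at least 1 base, by place of the vehicle peak, with exact 95% binomial intervals. Overlap with GSK-126 peaks goes from 44.5% at last exons to 70.5% at single-exon transcripts.

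The overlapping GSK-126 peaks were often of another kind. Their centre was in an intron for 36.2%, in an exon for 23.5%, between genes for 20.7%, at a transcript end for 12.9% and at a promoter for 6.65%. In 375 cases (17.1% of the overlaps) the GSK-126 peak was at least 5 times as wide as the vehicle peak, as at ZNF585A and ZNF382.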

How the data were processed

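H3K27me3 ChIP-seq of 4 T24 libraries was used, 1 per condition. The authors called peaks with MACS2 2.1.0 and used GRCh38, per the submitters' processing notes. The aligner and the control used for peak calling are not given in the sources used here. Per the file headers, the authors annotated each library's peaks with HOMER, which classes a peak by its centre, and counted fragments per consensus interval with featureCounts 2.0.1 (minimum overlap fraction 0.2). The deposited values are whole fragment counts per interval and a peak score whose scale the file headers do not state. The score was used only to describe, rank and filter vehicle peaks.

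Starts are given 1-based. Each vehicle peak was joined to the interval that holds it whole, and every peak had such an interval. Ratios of library shares, exact 95% Clopper-Pearson counting intervals and medians (pseudocount 0.5, all member intervals, order-statistic intervals) were computed with Python 3.11.15, numpy 2.4.6, pandas 2.3.3 and scipy 1.17.1, and tested on simulated data. Plots were drawn with matplotlib 3.10.9. DESeq2 1.42.0 and edgeR 4.0.16 (R 4.3.3) gave scaling factors only. Depth was 15812933 to 18928836 fragments per library, and intervals cover counting error only.

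Named genes are the 8 largest rises and falls against vehicle (5 against a single compound) with at least 100 fragments in the libraries compared, ranked by the counting bound nearest to 1, the 8 densest intervals of at least 2 kb, the 4 widest and 4 highest-scoring peaks, and up to 2 intervals per list with the most vehicle fragments. The largest rises of the combination over fenretinide are not listed. The members, lists and rules were chosen with earlier results of these data known. Alternatives were other scalings, count minimums, folds, members and units. Input and RNA libraries were not analysed here. The values of 1 gene of the lists are not reported here.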

Additional observations from a re-analysis of the deposited data

How the results depend on the processing

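Of 155 alternative values, 68 stayed within the tolerance, 85 moved and 2 changed sign. Both sign changes were in the median log2 ratio of the combination to GSK-126, 0.05 as reported, which was -0.074 with DESeq2 size factors and -0.057 with TMM factors. The cause was not tested.

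Scaling to the 25% of intervals with the fewest fragments per kb lowered every log2 ratio by the same amount within a comparison, with shifts against vehicle of -0.77 (GSK-126), -0.13 (fenretinide) and -0.81 (combination), and of -0.05 for the combination against GSK-126 and -0.68 against fenretinide. The medians then were -1.75, -0.35, -1.64, 0.0061 and -1.20. GSK-126 had 52 higher and 2507 lower, fenretinide 1 higher, the combination 28 higher and 2494 lower, and the combination against fenretinide 29 higher and 2015 lower. DESeq2 size factors gave medians of -0.33 for fenretinide and -0.96 for the combination, 1 rise with fenretinide and 25 of the combination over GSK-126. DESeq2 and TMM factors shifted log2 ratios by over 0.1 for fenretinide (-0.12 with each), the combination (-0.13 and -0.16) and the combination against GSK-126 (-0.13 and -0.11). TMM factors gave medians of -1.03, -0.33, -0.99 and -0.56 (the last against fenretinide), with 1 and 26 such rises.

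A minimum of 50 fragments left 2 higher and 71 lower with fenretinide, 741 lower with the combination, and 11 higher and 9 lower against GSK-126. A minimum of 1 gave 308 lower with fenretinide. A ratio of 1.5 gave 280 higher with GSK-126, 34 higher and 432 lower with fenretinide, 224 higher with the combination, 118 higher and 56 lower against GSK-126, and 205 higher and 1266 lower against fenretinide.

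The 2676 intervals with only exon and transcript-end peaks had medians of -1.31 (GSK-126), -0.45 (fenretinide), -1.16 (combination) and -0.67 (against fenretinide), with 49, 40 and 43 higher for GSK-126, the combination and the combination against fenretinide. The 2475 intervals covered to at least 50% by these peaks had medians of -1.39, -0.49, -1.25 and -0.72, with 6 higher for GSK-126, 0 for fenretinide, 2 for the combination, 23 against GSK-126 and 13 against fenretinide. The 1974 intervals with a score of at least 20 had medians of -1.04 (GSK-126), -0.19 (fenretinide), 0.10 (against GSK-126) and -0.59 (against fenretinide). There, fewer intervals being used, 44 were higher and 895 lower with GSK-126, 0 and 72 with fenretinide, 35 and 698 with the combination, 17 and 8 against GSK-126, and 37 and 425 against fenretinide.

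Chosen from a library outside the comparison, an alternative added after seeing the data, GSK-126 had a median of -0.79 and 236 higher, fenretinide -0.10 with 35 higher and 53 lower, and the combination -0.66 with 194 higher. Summed by host gene, the medians were -0.95, -0.19, -0.79 and -0.49 (the last against fenretinide), with 3 higher for fenretinide. A pseudocount of 1 gave -0.95 for GSK-126.

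Peak overlap was 27% (GSK-126), 55.1% (fenretinide) and 36.3% (combination) where at least 50% of the vehicle peak had to be covered, and 36.7%, 70.9% and 34.8% with scores of at least 20 on both sides. No paired analysis was possible because each condition has 1 library.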
